A study of Rattus norvegicus with 10 samples.

Results

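The genes described here encode the collagens and laminins together with 11 other proteins of the connective tissue matrix. They were chosen by name: every gene whose symbol is that of a collagen chain or a laminin chain, plus Fn1, Dcn, Lum, Ogn, Fmod, Bgn, Postn, Sparc, Nid1, Nid2 and Hspg2. The rule used no measured value. It matched 66 of the 32545 rows of the count table, which carry 64 distinct names because Col23a1 and Ogn are each listed on more than 1 row. Hspg2, which encodes perlecan, was not analysed here. Of the 66 rows, 53 passed the filter on low counts, and these are the members tested, among 15032 genes tested in all. The other 13 rows did not pass: Col1a2, 1 row of Col23a1 and 1 row of Ogn were listed at 0 in all 10 libraries, Col15a1 and the other Ogn row reached 1 count, and Col22a1, Col8a1, Col9a1, Col26a1, Col13a1, Col6a4, Col14a1 and Col28a1 reached between 4 and 12 counts.

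The libraries came from hippocampal slices of adult male Wistar rats, from which the CA1 region was dissected 1 h after drug treatment. There were 5 groups of 2 libraries. All groups but 1 received SKF, an agonist of dopamine D1/D5 receptors: SKF alone, SKF with 200 nM amyloid-β(1–42) (SKF+Aβ), the same with the empty glucose-derived carbon nanosphere at 0.36 μg/ml (SKF+Aβ+CSP), and the same with nanosphere loaded with TTK21, a compound that activates histone acetylation by CBP and p300 (SKF+Aβ+CSP-TTK21). The remaining group received the loaded nanosphere without SKF or Aβ (CSP-TTK21), so it differed from SKF in both agents. The doses are those given for the slice recordings, and were not stated separately for the sequenced slices. Per the study's methods each library pooled slices of more than 1 animal, and the untreated slices are not analysed here.

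Collagens are triple helices of 3 chains. The fibrillar types form the tensile fibres of connective tissue, type IV forms the sheet of basement membranes, and the remaining types decorate fibrils, anchor epithelia or span the cell membrane. Laminins are trimers of an α, a β and a γ chain that assemble on cell surfaces, and nidogens link the laminin and type IV collagen networks. In the brain such matrix is largely confined to blood vessels and the meninges, where endothelial cells, mural cells, astrocyte endfeet and fibroblasts make it, while the matrix between neurons is built mainly of proteoglycans and hyaluronan. In whole tissue, fewer cells of a type and less RNA per cell cannot be told apart.

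The upstream sequences of Col11a2 and Col16a1, which passed the adjusted test, and of the pair Col4a1 and Col4a2 are shown first. Lamb2 passed it too but had no promoter entry. Col11a2, a chain of the minor fibrillar collagen type XI, and Col16a1, a collagen that associates with fibril surfaces, were both lower in every other group than in SKF. Col4a1 and Col4a2 encode the chains of the ubiquitous type IV collagen and are transcribed away from each other from a shared interval. The sequences are from RefSeq on GRCr8, in which 49 of the 64 member names had a promoter entry. They are the 250 bases before the annotated start of Col11a2 (chr20:4817649-4817898, minus strand) and of Col16a1 (chr5:147672846-147673095, plus strand), and the 76 bases between the starts of Col4a2 and Col4a1 (chr16:84885521-84885596, plus strand). Capitals mark the GC box GGGCGG, searched on both strands, and the first pair in Col11a2 overlap.
Col11a2: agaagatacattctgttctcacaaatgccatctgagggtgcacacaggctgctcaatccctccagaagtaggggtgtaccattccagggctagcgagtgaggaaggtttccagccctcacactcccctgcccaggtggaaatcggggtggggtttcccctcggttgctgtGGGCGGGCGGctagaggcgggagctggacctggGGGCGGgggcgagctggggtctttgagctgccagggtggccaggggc
Col16a1: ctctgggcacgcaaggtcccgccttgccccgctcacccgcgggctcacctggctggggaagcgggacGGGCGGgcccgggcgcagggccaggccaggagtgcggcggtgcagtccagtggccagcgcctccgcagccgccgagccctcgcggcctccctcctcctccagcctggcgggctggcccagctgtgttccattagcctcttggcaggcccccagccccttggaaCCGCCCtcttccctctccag
Col4a2 to Col4a1: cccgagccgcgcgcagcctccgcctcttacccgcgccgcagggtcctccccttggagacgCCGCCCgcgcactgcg
The Col11a2 sequence held 3 such boxes, the Col16a1 sequence 2 and the type IV interval 1. GGGCGG was found in 25 of the 49 member promoters (51.0%) and in 30.5% of all 33469 promoters of 250 bases. CCAAT was found in 16 member promoters against 34.0% of all promoters, and TATAAA in 7 against 12.9%. None of these letters shows a bound factor.

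Library totals ran from 6753742 to 8473407 counts, and the members together took 0.153% to 0.270% of them. The highest share was that of SKF replicate 1, which held the highest level of 21 of the 53 members tested (39.6%), against 17.6% of all genes tested. Some member results that use the SKF libraries are therefore also given without this library. Results for marker genes and the other lists were not computed without it. Levels below are CPM, read counts scaled to a common library total with TMM factors, given for replicates 1 and 2 in that order. They are not scaled by gene length, so levels of different genes are not compared.

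**Figure D1:**
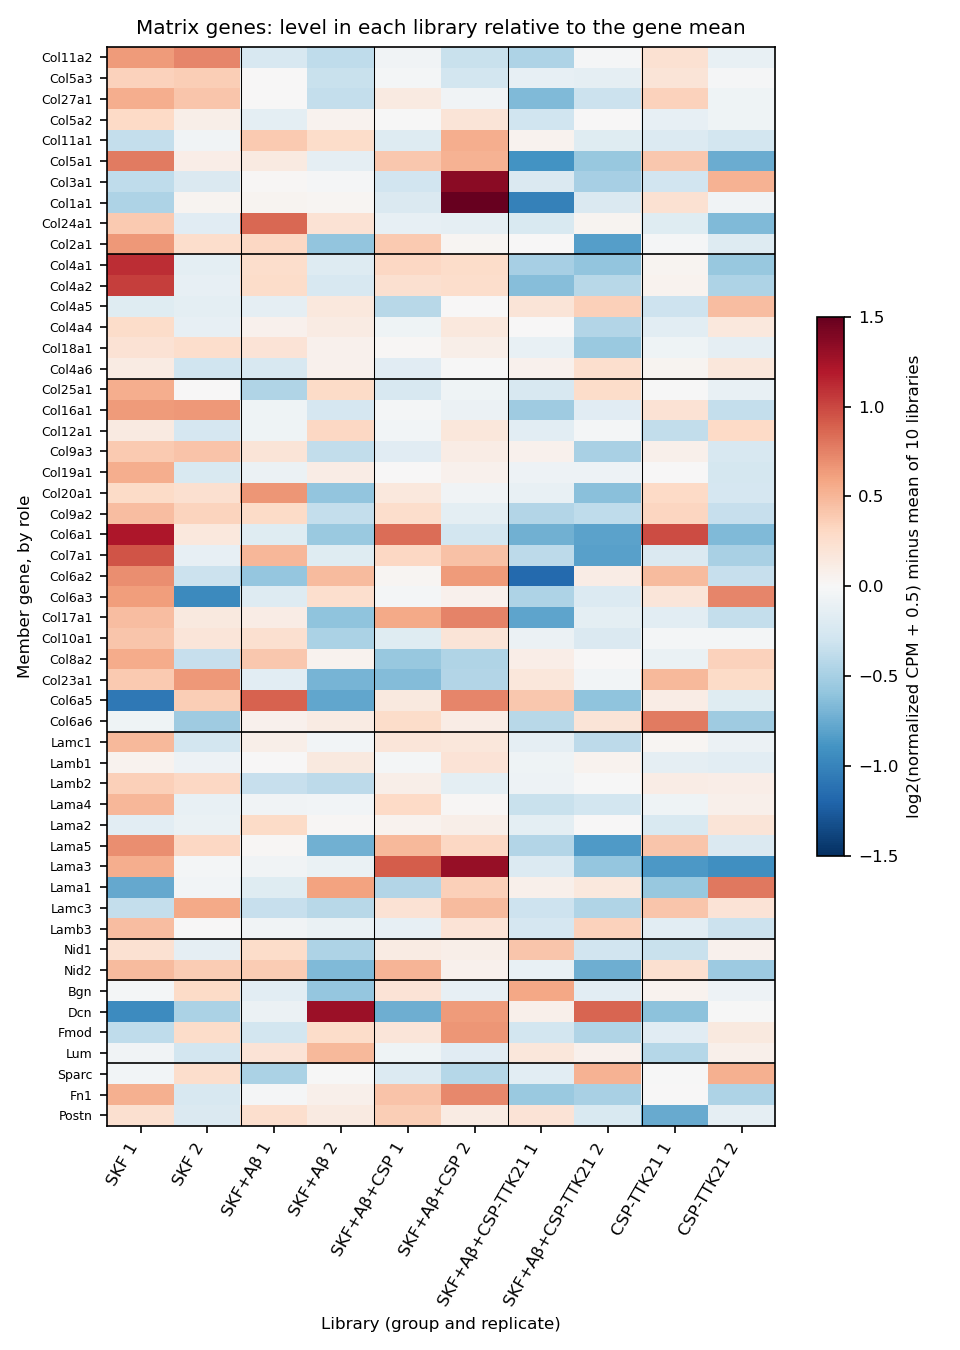
Heat map of the matrix genes tested (rows, without 1 gene not reported here, grouped by role: fibrillar collagens, basement membrane collagens, other collagens, laminins, nidogens, small leucine-rich proteoglycans, and Sparc, Fn1 and Postn) in the 10 libraries (columns). Colour is log2(CPM + 0.5) minus the gene's mean over libraries. SKF replicate 1 is the reddest column, and Col1a1 and Col3a1 stand out in SKF+Aβ+CSP replicate 2.

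The label of these genes as meningeal matrix was checked against marker genes. Of the 18 fibroblast markers with any count, Ptgds and Pdgfra, which other brain cells also express, reached at least 464 counts in every library and took 69.2% to 79.8% of the summed CPM. The growth factor Igf2 had 132 to 242 counts, and the 15 remaining markers had at most 85 in any library. Among these 15, Igfbp2 had 26 to 85 counts, Slc13a3 21 to 72, Mgp 15 to 61 and Gjb2 19 to 40, while Slc6a13 had 3 to 16, Aldh1a2 4 to 19, Slc22a6 at most 9 and Slc47a1 at most 3. Collagen Col1a1 and Col3a1, the bulk products of fibroblasts, had 20 to 126 and 32 to 121 counts, and Col1a2, the partner chain of Col1a1, was listed at 0 throughout. Counting error alone would allow 3 counts of it, or 0.354 to 0.444 CPM, but the tight junction gene Cldn5, which brain endothelium uses, was listed at 0 too. The vascular chain Col4a1 had 626 to 2101 counts. Choroid plexus RNA was also scarce. Ttr had 0 to 27 counts, and 8 of 11 choroid plexus markers did not pass the filter.

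Adding Aβ to SKF slices asked how the oligomers alter transcription in stimulated tissue. Col11a2, Lamb2 and Col16a1 fell, at an adjusted p under 0.05 in edgeR's quasi-likelihood test over all genes, and no other member passed. These 3 of 53 members (5.66%) stood against 2.08% of all genes tested. None passed the further limit of a log2 fold change of 1.5, which 0.146% of all genes did, and DESeq2 and limma also gave 0. At an unadjusted p under 0.05 there were 10 members (18.9%), below the 22.8% of all genes. Of these, 8 were lower, where 10.9% of all genes were, and 2 were higher, where 12% were. The median log2 fold change of the members was −0.26, against 0.00 for all genes, and it was 0.01 without SKF replicate 1 and −0.46 without SKF replicate 2, when 19 members had an unadjusted p under 0.05. DESeq2 added Col27a1 and Col5a3 to the 3 members past the adjusted threshold, and the fit of the 4 libraries compared alone kept Col11a2 only. The 3 members past the adjusted threshold became 0 without SKF replicate 1, SKF+Aβ replicate 1 or SKF+Aβ replicate 2, and Col11a2 alone without either SKF+Aβ+CSP library. Without SKF replicate 2 they were Col11a2, Col4a1 and Col4a2. The log2 fold changes of Col11a2, Lamb2 and Col16a1 without SKF replicate 1 were −1.06, −0.70 and −0.83.

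The other groups given Aβ were compared with the same SKF libraries, so their values share that baseline. In SKF+Aβ+CSP no member passed the adjusted threshold in the main edgeR fit (all 10 libraries, a mean per group), while 2 did with DESeq2, Col11a2 and Col16a1. Keeping only genes with at least 10 counts in every library, Col11a2 passed in edgeR (adjusted p = 0.0490). In the main fit 9 members (17.0%) had an unadjusted p under 0.05, against 19.3% of all genes. Of the 9, 6 were lower and 3 higher, against 9.03% and 10.3% of all genes. The median was −0.08, 0.16 without SKF replicate 1 and −0.25 without SKF replicate 2. Without SKF+Aβ+CSP replicate 2 the 9 became 3. In SKF+Aβ+CSP-TTK21 the members leaned further down: 40 of 53 were lower than in SKF, with a median of −0.43. An unadjusted p under 0.05 was reached by 21 members (39.6%), against 19.6% of all genes, and 20 of these were lower, where 8.78% of all genes were, and 1 higher, where 10.8% were. No member passed the adjusted threshold in the main edgeR fit, the lowest adjusted p being 0.0854. With DESeq2 4 did, Col11a2, Col16a1, Col27a1 and Fn1. In edgeR with an added term for the replicate number (the replicate block) 7 did. Without SKF replicate 1 the 21 members became 9 and the median −0.28. Calls past both limits were 0 in each comparison by the main edgeR fit, DESeq2 and limma. The main fit made them for 0.0133% of all genes in SKF+Aβ+CSP and for 0% in SKF+Aβ+CSP-TTK21. In SKF+Aβ+CSP-TTK21 against SKF, 2 members were called with the replicate block and 2 with no filter on low counts.

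In slices given CSP-TTK21 alone, 38 of 53 members were lower than in SKF, with a median of −0.23. Of the 53, 7 (13.2%) had an unadjusted p under 0.05, all lower. The share of all genes was 7.78%, with 3.63% lower and 4.16% higher. Calls past both limits were again 0, by edgeR, DESeq2 and limma, and 0% of all genes. Without SKF replicate 1 the 7 became 4 and the median −0.13, and without SKF replicate 2 they became 13 and −0.43. Without CSP-TTK21 replicate 1 or 2 the count was 16 or 4.

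Within the groups given Aβ, each nanosphere group was also compared with SKF+Aβ. With the empty nanosphere, 36 of 53 members were higher than in SKF+Aβ, with a median of 0.13 that fell to 0.02 without SKF+Aβ+CSP replicate 2. An unadjusted p under 0.05 was reached by 5 members (9.43%), all higher, against 2.18% of all genes, 0.552% lower and 1.63% higher. With the loaded nanosphere, 42 of 53 were lower than in SKF+Aβ (median −0.27), and 5 members (9.43%) reached this p, 3 lower and 2 higher, against 6.59% of all genes, 4.06% lower and 2.52% higher. In the empty nanosphere comparison 10 of 10 endothelial markers (median 0.33), 8 of 8 oligodendrocyte markers (median 0.39), 8 of 10 mural markers and 21 of 24 matrix receptors were also higher than in SKF+Aβ, while 7 of 8 astrocyte, 7 of 8 microglia and 7 of 9 excitatory neuron markers were lower. In the loaded nanosphere comparison 9 of 10 endothelial markers (median −0.59) and 6 of 10 mural markers were lower than in SKF+Aβ. There 8 of 8 astrocyte, 8 of 8 oligodendrocyte, 7 of 8 microglia and 8 of 9 excitatory neuron markers and 17 of 24 matrix receptors were higher. The part of these genes was not tested. For the loaded nanosphere, without SKF+Aβ replicate 1 the 5 became 1, and without SKF+Aβ replicate 2 they became 10. The direct comparison of loaded with empty nanosphere differs in TTK21 and uses no SKF library in the difference. There 39 of 53 members were lower (median −0.29), and 17 members (32.1%) reached this p, against 8.78% of all genes. Of these, 16 were lower, where 5.61% of all genes were, and 1 was higher, where 3.17% were. Without SKF+Aβ+CSP-TTK21 replicate 1 or 2 the 17 became 11 or 9. No member passed the adjusted threshold in these 3 comparisons in the main edgeR fit. Between the nanospheres Fn1 did with DESeq2, and Fn1, Col5a1, Col4a1 and Col4a2 did in the fit of those 4 libraries alone. With no filter on low counts 14 members passed it between the nanospheres and 1 in each comparison with SKF+Aβ. The lowest adjusted p was 0.336, 0% of all genes passed both limits, and DESeq2 and limma gave 0 such members.

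**Figure D2:**
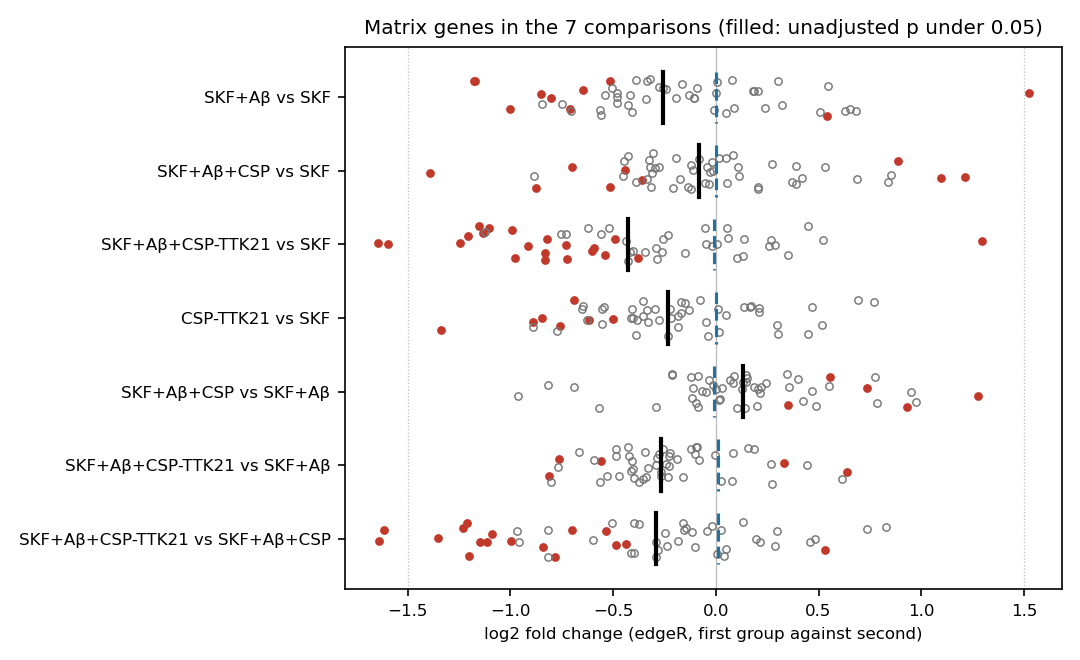
Log2 fold change (horizontal axis) of each of the 53 matrix genes in the 7 comparisons (rows), with filled points for an unadjusted p under 0.05. Solid bars mark the members' median and dashed bars the median of all genes tested, and dotted lines mark the limit of 1.5. The members' median is lowest in SKF+Aβ+CSP-TTK21 against SKF (−0.43) and is above 0 only in SKF+Aβ+CSP against SKF+Aβ (0.13).

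Among the fibrillar collagens, 10 of 11 were tested. Col11a2 was at 283 and 301 CPM in SKF and 213 and 167 in CSP-TTK21. In slices given Aβ it was at 153 and 139 without nanosphere, 175 and 144 with the empty one and 131 and 178 with the loaded one. Both SKF libraries lay above all 8 others. The level of 292 ± 13.1 (SD, n = 2) in SKF against 146 ± 10.2 in SKF+Aβ gave a log2 fold change of −1.0 (SE 0.17, adjusted p = 0.0306). Against the same SKF libraries the log2 fold change was −0.87 with the empty nanosphere (adjusted p = 0.0572), −0.92 with the loaded nanosphere (0.0854) and −0.62 in CSP-TTK21 (0.633). With DESeq2 the first 2 of these passed (adjusted p = 0.000414 and 0.000518). The groups given Aβ lay close together, with a difference of 0.13 (SE 0.17) between SKF+Aβ+CSP and SKF+Aβ and of −0.04 (SE 0.17) between loaded and empty nanosphere. The adjusted p of the Aβ difference rose to between 0.0686 and 0.147 when SKF replicate 1, SKF+Aβ replicate 1 or SKF+Aβ replicate 2 was left out.

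Col27a1 and Col5a3, a fibrillar collagen of cartilage and other tissues and the α3 chain of type V, followed a similar order. Col27a1 was at 63.6 and 58.1 CPM in SKF and 55.3 and 41.6 in CSP-TTK21. With Aβ it was at 43.7 and 33.8 without nanosphere, 47.7 and 41.6 with the empty and 27.2 and 34.5 with the loaded nanosphere. Its log2 fold change against SKF was −0.65 in SKF+Aβ (SE 0.19, adjusted p = 0.0753) and −0.98 in SKF+Aβ+CSP-TTK21 (SE 0.19, 0.0858). Col5a3 was at 89.6 and 91.2 CPM in SKF and between 55.7 and 80.0 in the 8 other libraries, with log2 fold changes of −0.52, −0.52, −0.49 and −0.28 in the 4 comparisons with SKF. In both genes the SKF libraries were the highest, without overlap. Neither gene passed the adjusted threshold in the main edgeR fit. With no filter on low counts, both passed in SKF+Aβ and Col27a1 in SKF+Aβ+CSP-TTK21. With DESeq2 both passed in SKF+Aβ (adjusted p = 0.0347 for Col27a1 and 0.0443 for Col5a3) and Col27a1 in SKF+Aβ+CSP-TTK21 (0.00191). With the replicate block Col27a1 passed in SKF+Aβ+CSP-TTK21. Col5a1, the main chain of type V, behaved otherwise. It was at 9.20 and 11.7 CPM with Aβ and the loaded nanosphere, against 23.5 and 25.5 with the empty nanosphere, 19.4 and 15.9 in SKF+Aβ, 30.6 and 19.0 in SKF and 23.5 and 10.3 in CSP-TTK21, whose replicate 2 lay among the loaded libraries. Its log2 fold change from empty to loaded nanosphere was −1.23 (SE 0.33, adjusted p = 0.510, and 0.0211 in the fit of those 4 libraries alone).

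Col1a1 and Col3a1, the chains of the main fibroblast collagens, were set by a single library. Col1a1 was at 18.5 CPM and Col3a1 at 17.7 in SKF+Aβ+CSP replicate 2, while replicate 1 of that group had 4.84 and 5.32 and the 8 libraries of other groups had 2.56 to 6.75 and 4.56 to 9.76. Their log2 fold changes against SKF were 1.21 and 1.10 (adjusted p = 0.204 and 0.211), and the 2 groups overlapped for both genes. Without that library they became −0.04 and −0.01. The fibroblast markers were mixed in that library. All 18 summed to 269 CPM there, within the range of the other 9 libraries (202 to 286). Leaving aside Ptgds and Pdgfra, the 16 others summed to 82.7 CPM in that library and to between 49.8 and 66.5 in the other 9, and 5 of them, Igf2, Igfbp2, Aldh1a2, Slc6a13 and Slc22a6, were at their highest in it, Igf2 at 35.5 and Igfbp2 at 12.5 CPM. Foxc1 at 2.20, Zic1 at 1.47, Islr at 0.733 and Pdgfra at 77.4 CPM lay in the lower part of their ranges. Their part in the Col1a1 and Col3a1 levels was not tested.

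**Figure D3:**
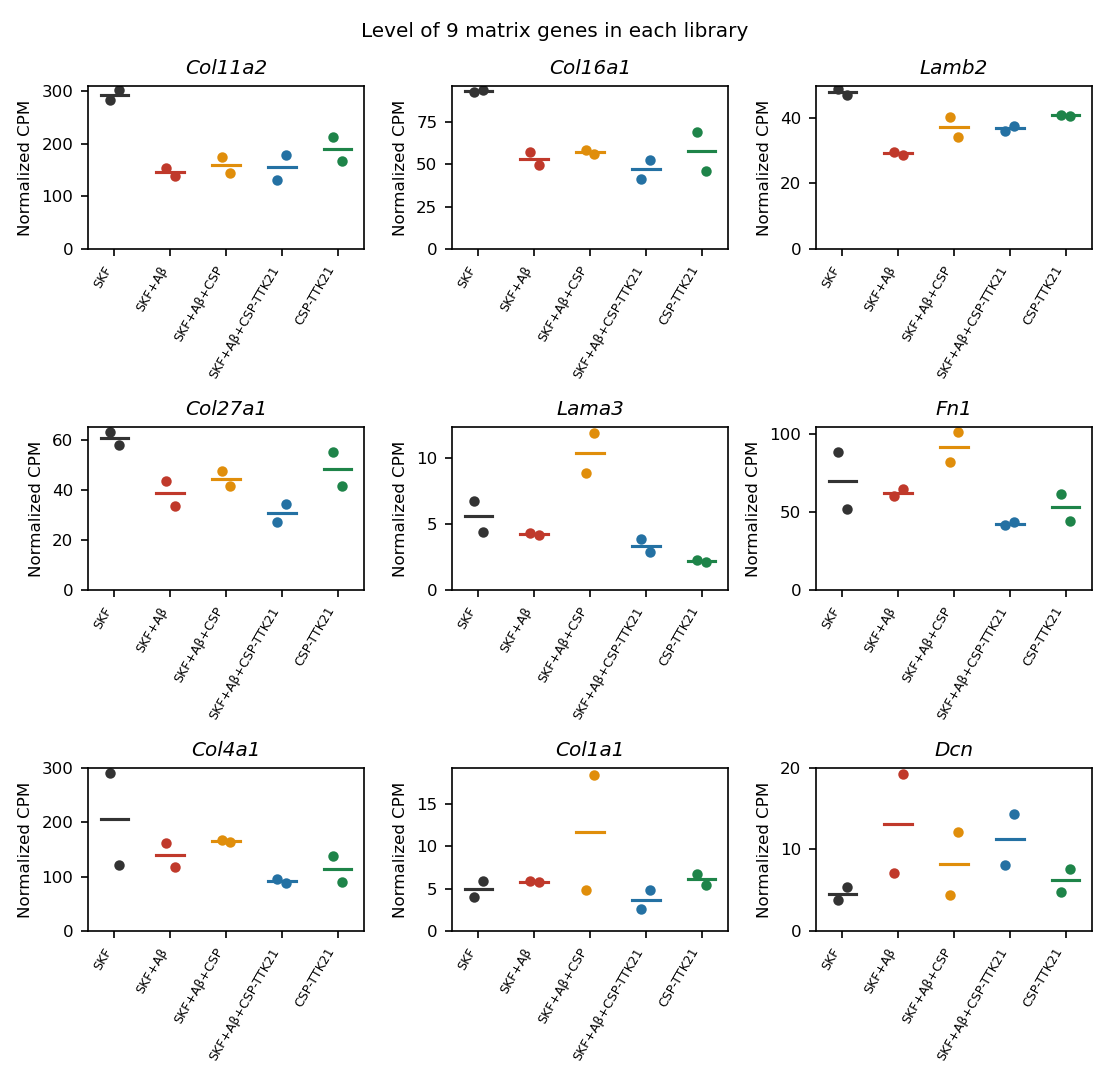
CPM (vertical axis, from 0) of 9 matrix genes in the 5 groups. Each point is a library and each bar the mean of 2. For Col11a2, Col16a1, Lamb2 and Col27a1 both SKF points lie above all others, for Lama3 both SKF+Aβ+CSP points do, and Col1a1 has 1 high library at 18.5.

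Of the basement membrane collagens, Col4a1 was at 290 and 121 CPM in SKF and 139 and 90.6 in CSP-TTK21. The Aβ groups had 162 and 117 without nanosphere, 168 and 164 with the empty nanosphere and 95.6 and 89.2 with the loaded nanosphere. SKF replicate 1 thus stood well above its own replicate, and SKF+Aβ+CSP-TTK21 replicate 2 was lowest. Col4a2 followed its partner closely: its count was 0.898 to 1.12 times that of Col4a1 in the 10 libraries. The log2 fold change from SKF to SKF+Aβ+CSP-TTK21 was −1.15 for Col4a1 (SE 0.31, adjusted p = 0.109) and −1.10 for Col4a2 (SE 0.29, 0.109). Without SKF replicate 1 these became −0.41 and −0.42. With all 10 libraries, both genes passed the adjusted threshold in this comparison with no filter on low counts, and Col4a1 with the replicate block. From empty to loaded nanosphere SKF replicate 1 has no part in the difference. There the log2 fold change was −0.84 (SE 0.31) for Col4a1 and −0.78 (SE 0.29) for Col4a2, with an adjusted p of 0.556 for both. For CSP-TTK21 against SKF the Col4a1 value of −0.84 became −0.09 without SKF replicate 1. Col4a5, a chain of another type IV network, was at 24.1 and 24.7 CPM in SKF and 31.4 and 35.2 in SKF+Aβ+CSP-TTK21, a log2 fold change of 0.45 (adjusted p = 0.306), opposite in sign to Col4a1.

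Endothelial markers were measured beside the vascular chains. The summed CPM of the 11 endothelial markers found was 359 and 228 in SKF and 239 and 219 in CSP-TTK21. With Aβ it was 264 and 206 without nanosphere, 345 and 284 with the empty and 196 and 187 with the loaded nanosphere. SKF replicate 1 was highest and both SKF+Aβ+CSP-TTK21 libraries lowest, as they were for the summed basement membrane collagens (621, 238 and 244 CPM). From empty to loaded nanosphere all 10 endothelial markers tested were lower, 7 of them at an unadjusted p under 0.05 (5.61% of all genes were), with a median of −0.91. Against SKF, 5 of 10 were lower at this p in SKF+Aβ+CSP-TTK21, against 8.78% of all genes. In SKF+Aβ and in CSP-TTK21, 7 of 10 were lower than in SKF, 2 of them at this p (10.9% and 3.63% of all genes). In SKF+Aβ+CSP, 7 of 10 were higher than in SKF, 2 of them at this p (10.3% of all genes). These counts against SKF were not computed without SKF replicate 1. Cdh5, the cadherin of endothelial junctions, was at 50.3 and 39.9 CPM with the empty and 14.1 and 18.7 with the loaded nanosphere (log2 fold change −1.47, SE 0.34, adjusted p = 0.510), and the VEGF receptor Flt1 at 81.6 and 60.7 against 35.3 and 34.2 (−1.04, SE 0.23, 0.428). Egfl7 differed by −0.80 (SE 0.32). None passed the adjusted threshold. The part of vessel content in the matrix differences was not tested. From empty to loaded nanosphere, 8 of the 10 mural cell markers were lower and 2 higher (median −0.47). At this p 2 were lower and 1 higher: Notch3 was higher by 0.52, and Rgs5 and Myh11 had log2 fold changes of −0.56 and −0.60.

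**Figure D4:**
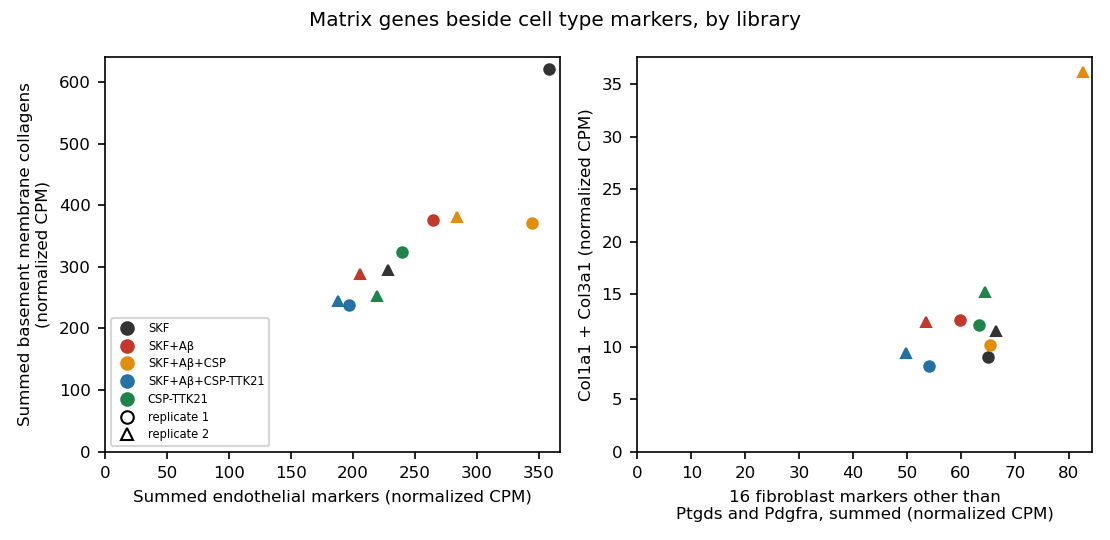
Left, summed CPM of the basement membrane collagens (vertical axis) against summed CPM of endothelial markers (horizontal axis), 1 point per library. Right, Col1a1 plus Col3a1 against the 16 fibroblast markers other than Ptgds and Pdgfra. Colours mark groups and shapes replicates. On the left the SKF+Aβ+CSP-TTK21 libraries lie lowest on both axes and SKF replicate 1 highest, and on the right SKF+Aβ+CSP replicate 2 lies highest on both axes, at a marker sum of 82.7, though not on the sum of all 18 markers.

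The remaining collagens comprised 26 rows, of which 17 were tested. Col16a1 was at 92.9 and 93.6 CPM in SKF and 69.2 and 46.3 in CSP-TTK21. Among the Aβ groups it was at 57.0 and 49.8 without nanosphere, 58.6 and 56.0 with the empty and 41.2 and 52.8 with the loaded nanosphere. As for Col11a2, both SKF libraries lay above all others. From SKF to SKF+Aβ its log2 fold change was −0.80 (SE 0.18, adjusted p = 0.0444), and against the same libraries it was −0.70, −0.99 and −0.69 in the 3 other groups (adjusted p = 0.0905, 0.0858 and 0.633). With DESeq2 the first 2 of these passed (0.0254 and 0.000847), and the value of −0.69 in CSP-TTK21 became −0.43 without CSP-TTK21 replicate 2. The adjusted p rose above 0.05 when any SKF, SKF+Aβ or SKF+Aβ+CSP library was left out, at 0.0739 to 0.148, and also in the fit of the 4 libraries compared alone (0.0748) and without TMM factors (0.0504).

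Col17a1 and Col7a1 encode the transmembrane collagen of hemidesmosomes and the collagen of the anchoring fibrils beneath epithelia. Col17a1 was at 7.33 and 8.36 CPM in SKF+Aβ+CSP and at 2.56 and 4.28 in SKF+Aβ+CSP-TTK21, a log2 fold change of −1.20 (SE 0.35, adjusted p = 0.517), and Col7a1 was at 15.5 and 17.0 against 9.33 and 6.84, a change of −1.0 (SE 0.34, adjusted p = 0.556). In CSP-TTK21 against SKF, Col7a1 differed by −0.89, which became −0.25 without SKF replicate 1. Col6a1, a chain of the beaded-filament collagen type VI, was at 32.2 and 15.2 CPM in SKF and 27.3 and 8.42 in CSP-TTK21. The Aβ groups had 11.9 and 9.09 alone, 24.7 and 11.1 beside the empty and 8.05 and 7.56 beside the loaded nanosphere. The loaded nanosphere group with Aβ lay below every other library, while 3 of the groups varied widely. From SKF to SKF+Aβ+CSP-TTK21 its log2 fold change was −1.60 (SE 0.50, adjusted p = 0.137), and −0.98 without SKF replicate 1. The transmembrane collagen Col23a1, on its detected row (ENSRNOG00000003349), was at 2.49 and 3.07 CPM in SKF and 0.945 and 1.17 in SKF+Aβ+CSP (log2 fold change −1.39, SE 0.45, adjusted p = 0.138). Col12a1, which binds fibril surfaces, stayed between 28.0 and 45.2 CPM with overlapping groups.

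Col25a1 encodes the neuronal transmembrane collagen whose shed form was found in amyloid plaques. It was at 166 and 114 CPM in SKF and 113 and 105 in CSP-TTK21. With Aβ it was at 83.1 and 138 alone, 96.3 and 108 beside the empty and 96.0 and 138 beside the loaded nanosphere. The groups with and without Aβ overlapped. Its log2 fold change from SKF to SKF+Aβ was −0.34 (SE 0.24, adjusted p = 0.412), within the spread between libraries, and −0.06 without SKF replicate 1 or −0.03 without SKF+Aβ replicate 1.

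All 11 laminin chains were tested. Lamb2, the β2 chain of synaptic and vascular laminins, was at 48.8 and 47.1 CPM in SKF and 40.9 and 40.8 in CSP-TTK21. With Aβ it was at 29.8 and 28.8 alone, 40.3 and 34.3 beside the empty and 36.0 and 37.6 beside the loaded nanosphere. SKF was highest and SKF+Aβ lowest, and the 3 other groups lay between them without reaching either. From SKF to SKF+Aβ this was a log2 fold change of −0.71 (SE 0.14, adjusted p = 0.0376). Against SKF+Aβ, Lamb2 was higher by 0.35 (SE 0.15) with the empty and by 0.33 (SE 0.15) with the loaded nanosphere, neither of which passed (adjusted p = 1.00 and 0.746), and loaded and empty nanosphere differed by −0.02 (SE 0.14). In the fit of the 4 SKF and SKF+Aβ libraries alone, the adjusted p of the Aβ difference was 0.102, and without a library of SKF, SKF+Aβ or SKF+Aβ+CSP it was 0.0579 to 0.147. The β1 chain Lamb1 stayed between 57.6 and 74.5 CPM in all libraries, the narrowest relative range of any member tested, with a log2 fold change of 0.09 (SE 0.14) from SKF to SKF+Aβ.

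Lama3, the α3 chain of epithelial laminin, had the lowest p of any member in the test among the 5 groups. It was at 8.86 and 11.9 CPM in SKF+Aβ+CSP, from 75 and 81 counts. With Aβ it was at 4.33 and 4.17 alone and at 3.84 and 2.85 beside the loaded nanosphere. The groups without Aβ had 6.77 and 4.41 (SKF) and 2.25 and 2.14 (CSP-TTK21). The empty nanosphere group thus lay above every other library and the group given CSP-TTK21 alone below every other. The log2 fold change was 1.28 (SE 0.31) from SKF+Aβ to SKF+Aβ+CSP, −1.62 (SE 0.32) from there to SKF+Aβ+CSP-TTK21, and −1.34 (SE 0.35) from SKF to CSP-TTK21, with adjusted p of 1.00, 0.336 and 0.633. With no filter on low counts all 3 passed (adjusted p = 0.0417, 0.00053 and 0.0459). Lamb3, the β3 chain of epithelial laminin, stayed between 1.07 and 2.21 CPM.

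Lama5 and Lama4 are the α chains of vascular laminins. Lama5 was at 12.3 and 10.8 CPM in SKF+Aβ+CSP and 14.4 and 10.8 in SKF, against 8.80 and 5.07 in SKF+Aβ and 6.26 and 4.56 in SKF+Aβ+CSP-TTK21. From empty to loaded nanosphere its log2 fold change was −1.09 (SE 0.32, adjusted p = 0.517), and from SKF −1.21 (SE 0.32, 0.109). With no filter on low counts Lama5 passed the adjusted threshold in both comparisons, and with the replicate block in the second. Lama4 differed by −0.48 (SE 0.21, adjusted p = 0.564) between the nanospheres. Lamc1, the γ1 chain that most laminins share, was at 162 and 161 CPM with the empty and 130 and 109 with the loaded nanosphere (−0.44, SE 0.19, 0.564).

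Neither nidogen passed the adjusted threshold in the edgeR fit of all 10 libraries, though with no filter on low counts Nid2 did in SKF+Aβ+CSP-TTK21 against SKF and against SKF+Aβ+CSP. Nid1 was at 34.1 and 33.3 CPM in SKF+Aβ+CSP and 41.9 and 25.5 in SKF+Aβ+CSP-TTK21, a log2 fold change of 0.00 (SE 0.26), whereas Nid2 was at 41.8 and 30.5 against 27.1 and 17.4, a change of −0.70 (SE 0.32, adjusted p = 0.567) that was −0.42 without SKF+Aβ+CSP-TTK21 replicate 2.

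Of the small leucine-rich proteoglycans, which bind collagen fibrils, 4 of 6 rows were tested. Dcn, which encodes decorin, was at 3.73 and 5.34 CPM in SKF and 4.78 and 7.62 in CSP-TTK21. With Aβ it was at 7.12 and 19.2 alone, 4.37 and 12.2 beside the empty and 8.05 and 14.4 beside the loaded nanosphere. Both SKF libraries lay below those of SKF+Aβ and SKF+Aβ+CSP-TTK21, but replicate 2 of SKF+Aβ, at 19.2, was far above its partner. Replicate 2 was the higher library in every group, and with the replicate block Dcn passed the adjusted threshold in SKF+Aβ against SKF. The log2 fold change against SKF was 1.53 (SE 0.52, adjusted p = 0.114) in SKF+Aβ and 1.30 (SE 0.53, 0.205) in SKF+Aβ+CSP-TTK21. Without SKF+Aβ replicate 2 the first became 0.63, and without SKF+Aβ+CSP-TTK21 replicate 2 the other became 0.81. Bgn, which encodes biglycan, was at 14.4 and 10.6 CPM in SKF+Aβ and 24.4 and 14.4 in SKF+Aβ+CSP-TTK21 (0.64, SE 0.26, adjusted p = 0.746), a difference that became 0.21 without SKF+Aβ+CSP-TTK21 replicate 1. Lum, the lumican gene, had 9 to 19 counts and Fmod, the fibromodulin gene, stayed between 1.43 and 3.66 CPM.

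Fn1, which encodes fibronectin, was at 82.1 and 101 CPM in SKF+Aβ+CSP and 41.4 and 43.3 in SKF+Aβ+CSP-TTK21. The other groups had 88.3 and 51.7 (SKF), 60.3 and 64.5 (SKF+Aβ), and 61.5 and 44.4 (CSP-TTK21). The loaded nanosphere group was thus below every other library. The log2 fold change from empty to loaded nanosphere was −1.11 (SE 0.23, adjusted p = 0.336). With DESeq2 its adjusted p was 0.00624 and in a fit of those 4 libraries alone 0.0125, so whether it passed depended on the model. Sparc, which encodes a matrix-binding protein of glia and endothelium, was at 334 and 287 CPM with the empty and 345 and 554 with the loaded nanosphere, a log2 fold change of 0.53 (SE 0.23, adjusted p = 0.564), opposite in sign to Fn1, that was 0.15 without SKF+Aβ+CSP-TTK21 replicate 2. Postn, the periostin gene, stayed between 1.13 and 3.07 CPM.

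In the test among all 5 groups, 0 members passed the adjusted threshold in the main edgeR fit (0.00665% of all genes, 1 gene, did), while DESeq2 gave 5. At an unadjusted p under 0.05 there were 15 of 53 members (28.3%), against 14.3% of all genes. In order of p these were Lama3, Col11a2, Col16a1, Col27a1, Fn1, Lamb2, Lama5, Col5a1, Col5a3, Col4a1, Col17a1, Col7a1, Col4a2, Col23a1 and Col6a1, and the lowest adjusted p was 0.144.

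The genes that build, cut and bind this matrix were read from further lists. Of 25 collagen processing enzymes, 4 were lower and 0 higher at an unadjusted p under 0.05 in SKF+Aβ+CSP-TTK21 against SKF (16% lower, against 8.78% of all genes), and 3 lower and 1 higher in SKF+Aβ against SKF, where the 12% lower was near the 10.9% of all genes. Serpinh1, the collagen chaperone HSP47, was at 37.2 and 45.8 CPM in SKF and 22.6 and 27.1 in SKF+Aβ (log2 fold change −0.74, SE 0.21, adjusted p = 0.0707). The collagen hydroxylase P3h3 was at 29.9 and 34.9 CPM with the empty and 17.4 and 22.7 with the loaded nanosphere (−0.69, SE 0.25, 0.556), and Pcolce, an enhancer of collagen propeptide cleavage, differed there by −1.44 (SE 0.53) at low counts. Of 19 matrix proteases and inhibitors tested, 3 (15.8%) were lower and 0 higher between the nanospheres, against 5.61% and 3.17% of all genes. The plasminogen activator Plat differed by −0.45 (SE 0.19) between the nanospheres, and the membrane protease Mmp15 by −0.57 (SE 0.20) from SKF to SKF+Aβ.

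Of 24 matrix receptors tested, 5 (20.8%) were lower and 0 higher at an unadjusted p under 0.05 in SKF+Aβ against SKF, where 10.9% and 12% of all genes were. Itga5, the α5 chain of the fibronectin receptor, was at 27.5 and 17.2 CPM in SKF, and with Aβ at 11.5 and 13.9 alone, 22.8 and 25.5 beside the empty and 12.3 and 14.7 beside the loaded nanosphere. Its log2 fold change was 0.93 (SE 0.24, adjusted p = 1.00) with the empty nanosphere and −0.84 (SE 0.24, 0.517) from empty to loaded, the same signs as those of its ligand Fn1. Sdc4, a heparan sulphate receptor, differed by −0.52 (SE 0.13, adjusted p = 0.0542) from SKF to SKF+Aβ, and the collagen receptor chain Itga10 by −1.47 (SE 0.59) between the nanospheres. In the matrix of the neuropil, 4 of 15 genes tested (26.7%) were lower and 0 higher at this p from SKF to SKF+Aβ, against the same shares, while 9 of the 15 had positive log2 fold changes and the median was 0.10. Bcan, the brevican gene, was at 380 and 490 CPM in SKF and 257 and 272 in SKF+Aβ and fell (−0.72, SE 0.16, adjusted p = 0.0422). Ncan, the neurocan gene, differed by −0.49 (SE 0.13, 0.0689) and Hapln4, a hyaluronan link protein, by −0.36 (SE 0.14).

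Markers of other cell types were read in the same way. In SKF+Aβ against SKF, 3 of 8 astrocyte markers (Sox9, Aldoc and Aldh1l1), 1 of 8 microglia markers (C1qa) and 4 of 8 oligodendrocyte markers, Mbp, Mobp and Cnp among them, were lower at an unadjusted p under 0.05 and 0 were higher, against 10.9% and 12% of all genes. Between the nanospheres, where most matrix genes were lower, all 8 astrocyte markers were higher from empty to loaded (median 0.41, 2 at an unadjusted p under 0.05), as were 7 of 8 microglia markers (median 0.57, 2 at this p) and all 8 oligodendrocyte markers (median 0.16, 0 at this p) and 8 of 9 excitatory neuron markers (median 0.18, 2 at this p), where 3.17% of all genes were higher at this p and 5.61% lower. From SKF+Aβ to SKF+Aβ+CSP-TTK21 the 8 oligodendrocyte markers were higher too, 5 of them at this p (median 0.57), against 2.52% of all genes. C1qa was at 23.6 and 39.2 CPM in SKF and 12.6 and 14.9 in SKF+Aβ (−1.20, SE 0.31, adjusted p = 0.0617). Of the 9 excitatory neuron markers 1 was lower (Nrgn, −0.46) and 1 higher, and of the 6 dentate gyrus and CA3 markers 1 was lower (Bok, −0.43). Of the 14 fibroblast markers tested, 1 was lower there (Ptgds, −0.56), and between the nanospheres 3 were lower, with Igf2 at −0.69 and Crabp2 at −2.00, and 1 higher. Of the 3 choroid plexus markers tested, Kcnj13, Cldn2 and Ttr, 0 reached this p in any comparison. The oligodendrocyte sum ranged from 11480 to 26425 CPM and the astrocyte sum from 4069 to 6108. Their part in the matrix differences was not tested.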

How the data were processed

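CA1 tissue of rat hippocampal slices was sequenced as rRNA-depleted, stranded libraries. The authors deposited a table of read counts per gene for all libraries, which was used as deposited. The study's methods name the Rnor_6.0 genome and then alignment to mm10 with TopHat2, followed by Cufflinks and Cuffdiff, whereas the submitters' processing notes list STAR, RSEM, HISAT2, Salmon and GRCh38. The counter, the annotation and the use of strand are not given in the sources used here, so overlapping genes and near-identical copies are uncertain.

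Groups came from the sample titles. The count model was that of edgeR 4.0.16 under R 4.3.3, with filterByExpr by group, TMM factors, and 1 quasi-likelihood fit of all 10 libraries with a mean per group. P-values were adjusted by Benjamini-Hochberg over all 15032 genes tested. A call needed an adjusted p below 0.05 and an absolute log2 fold change over 1.5. Errors beside CPM are SD of 2 libraries, and SE beside log2 fold changes come from the fit. With 2 libraries a group, p-values measure the spread between these libraries, and intervals and floors of 3 counts cover counting error only. On simulated data for SKF+Aβ against SKF, with 200 of 14799 genes changed 4-fold, 197 changed genes were called, and with none changed 0 of 14816 were.

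Genes named were members past the adjusted threshold, up to 5 with the lowest p in each comparison, up to 3 of the highest mean CPM per role, members below the filter, and the chains that define fibroblast and vascular matrix and Col25a1. From each other list the 3 genes with the lowest p among the groups were named, and Lamb3, Col6a1 and the genes of the marker check were added after their values were seen. The members and lists were chosen with earlier results of these data known. Alternatives were DESeq2 1.42.0, limma 3.58.1, a replicate block, a fit of only the groups compared, other normalizations, filters and limits, and leaving out each library. Shares of all genes are those of the main fit. Library totals without TMM factors and the fibroblast sum without Ptgds and Pdgfra were added after the data were seen. Untreated slices, Hspg2 and Pecam1 were not analysed here, and values of some list genes are not reported here.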

Additional observations from a re-analysis of the deposited data

How the results depend on the processing

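Depth limits the members with few counts, such as Lum with 9 to 19. The 35 results for single members followed were those with the lowest p, up to 5 in each comparison, so a stable sign was partly built in. None of the 35 reversed under any of 17 to 18 alternatives. Outside them, Col1a1 and Col3a1 in SKF+Aβ+CSP against SKF changed sign without SKF+Aβ+CSP replicate 2. Of the 7 medians, 2 changed sign, both without SKF replicate 1: SKF+Aβ against SKF (0.01) and SKF+Aβ+CSP against SKF (0.16). Deviations from the group mean correlated between libraries of equal number at −0.078 to 0.27 over all genes, above 0.1 in 4 of 10 pairs of groups, and at −0.022 to 0.63 over the members, above 0.1 in 7 of 10. Since not every pair exceeded 0.1, the numbers were not taken to pair the libraries, but 8 members (15.1%) were higher in replicate 1 in all 5 groups, against 4.26% of all genes. In the fit with a replicate block, 7 members passed the adjusted threshold in SKF+Aβ+CSP-TTK21 against SKF. Among them were Col11a2, Col16a1 and Col27a1 (adjusted p = 0.0404, 0.0397 and 0.0397), Col4a1, Col6a1 and Lama5. Dcn joined the 3 in SKF+Aβ against SKF. With this block, 2 members were called in SKF+Aβ+CSP-TTK21 against SKF and 9 had an unadjusted p under 0.05 in SKF+Aβ+CSP-TTK21 against SKF+Aβ. The block moved no other count of calls or of members at this p by more than 1.5 times.

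Without a fold limit, 3 members were called in SKF+Aβ against SKF. For the settings below and for the replicate block no share of all genes was taken, so their counts do not set the members apart. With no filter on low counts (63 members tested), the adjusted threshold was passed by 11, 5, 14 and 6 members in the 4 comparisons with SKF, 1 and 1 against SKF+Aβ and 14 between the nanospheres. In that setting 2 were called in SKF+Aβ+CSP-TTK21 against SKF and 2 against SKF+Aβ+CSP, and counts at an unadjusted p under 0.05 were 20 in SKF+Aβ, 16 in SKF+Aβ+CSP and 12 in CSP-TTK21 against SKF, and 10 with the empty and 9 with the loaded nanosphere against SKF+Aβ. Among the 5 groups that setting gave 20 members past the adjusted and 28 past the unadjusted threshold, and DESeq2 gave 5 past the adjusted one. With an added log2 fold change beyond 1, the unadjusted counts were 4, 3, 8 and 1 in the 4 comparisons with SKF in the order of the report, 1 and 0 against SKF+Aβ, and 9 between the nanospheres. DESeq2 gave 4 in CSP-TTK21 against SKF and 3 in SKF+Aβ+CSP against SKF+Aβ. The cause was not tested. Leaving out each library gave 7 to 19 members in SKF+Aβ, 3 to 11 in SKF+Aβ+CSP, 9 to 24 in SKF+Aβ+CSP-TTK21 and 4 to 16 in CSP-TTK21 against SKF, 3 to 6 and 1 to 10 against SKF+Aβ, 9 to 19 between the nanospheres, and 14 to 19 among the groups. Calls past both limits then ranged from 0 to 4 in SKF+Aβ+CSP-TTK21 against SKF, with 4 without SKF replicate 2, and were 0 elsewhere. The 3 to 11 range had its low end without SKF+Aβ+CSP replicate 2, and the 9 to 24 range without SKF replicate 1.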
